A study of Mus musculus with 2 samples.

Results

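Atf4 and 9 of its targets were measured in mouse primary chondrocytes before and after cyclic tensile strain. The genes were listed by name as known members of this pathway, with earlier results of these data known. Atf4, Ddit3, Trib3, Sesn2, Chac1, Asns, Phgdh, Psat1, Shmt2 and Mthfd2 are among the genes that cells switch on when amino acids run short. They are 10 of 20660 genes that could be named through RefSeq on the array, and 10 of the 14231 genes detected at both time points. A total of 13 probes report them, 2 each for Atf4, Phgdh and Psat1 and 1 for each of the other 7 genes. The scanner software called all 13 probes well above background at both time points and 0 of them saturated.

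Chondrocytes of 6-day-old C57BL/6J mice were grown on stretch chambers and stretched by 10% at 0.5 Hz for 30 min. Total RNA of unloaded cells, taken before mechanical loading, was hybridised to 1 one-colour Agilent mouse array, and RNA taken 24 h after loading was hybridised to another on the same slide. With 1 array per time point there was no replicate error and no test was run, so the precision is limited by the small number of arrays. An unloaded culture at 24 h was not analysed here, so the effects of loading and of another 24 h in culture cannot be told apart. The labels name no transgene or agent, and the number of mice behind each RNA sample is not given in the sources used here. In a culture measured in bulk, fewer cells of a type and less RNA per cell cannot be told apart.

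ATF4 is the central transcription factor of the integrated stress response. When amino acids are scarce or proteins misfold in the endoplasmic reticulum, kinases phosphorylate the translation factor eIF2, most protein synthesis slows, and Atf4 mRNA is translated more, so that ATF4 protein is set largely by translation and not by the level of its mRNA. ATF4 then binds C/EBP-ATF response elements, usually with a C/EBP partner, and switches on genes that make and import amino acids, charge tRNAs and end the response. In cartilage, ATF4 is known for its part in the growth and maturation of growth plate chondrocytes, and DDIT3 (CHOP) for its part in chondrocytes that retain misfolded collagen.

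The core of the C/EBP-ATF response element, TGATGNAA on either strand, was searched in RefSeq promoter windows of assembly GRCm38.p6, from 250 bases before to 50 bases after a transcription start. It occurs in 3.97% of all 32851 windows. The 10 genes have 11 windows, and 3 of these windows, 1 each of Chac1, Trib3 and Asns, hold a match. These stretches are shown because the 3 genes stand for the element that ATF4 is known to read. The match is in capitals, and positions count from the first transcribed base as 1.

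Chac1, chr2:119351023-119351082, plus strand, match at -193 to -186: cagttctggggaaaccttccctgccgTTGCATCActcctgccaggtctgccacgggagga

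Trib3, chr2:152344028-152344057, minus strand, match at 15 to 22: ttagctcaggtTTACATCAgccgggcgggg

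Asns, chr6:7693210-7693269, minus strand, match at -23 to -16: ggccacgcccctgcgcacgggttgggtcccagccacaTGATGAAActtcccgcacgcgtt

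The Asns match reads along the gene, and those of Chac1 and Trib3 read on the opposite strand. The cAMP response element TGACGTCA, which reads the same on both strands, occurs in 1.79% of all windows and in 0 of the 11 windows of the 10 genes. No site can match both motifs. A match to these letters is a description of the window and not a measured binding site, and ATF4 can bind outside these windows.

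Intensities are the scanner software's background-subtracted signals in arbitrary units. Ratios are log2 of 24 h over before, after each array was scaled to its 75th percentile, which was 466.4 before loading and 466.2 at 24 h. The error printed with a ratio is the software's own error of both spots combined. It covers the spots on these arrays only, and it says nothing of the spread between cultures. At the brightest probe of each of the 10 genes it was 0.204, and it was larger at dim probes, such as 0.35 for Ptprc. For bright genes a ratio beyond its error therefore passed a nearly fixed cut, not a noise level particular to the gene. Since each probe of the 10 genes has 1 spot, repeated spots were taken from other probes: for 41 probes with at least 8 spots and as bright as those of the 10 genes, spots of one probe varied in log2 ratio with a median SD of 0.055 and a highest SD of 0.196, below the software's error of 0.20.

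All 10 genes had a lower value 24 h after loading, with log2 ratios from -0.56 (Ddit3) to -0.05 (Atf4) and a median of -0.27, which is 1.21-fold lower, except that Atf4 lay above 0 in 4 of 9 other ways of processing the arrays. The shifts were small. The ratio exceeded its within-array error in 6 genes, Ddit3, Shmt2, Psat1, Asns, Mthfd2 and Trib3, and stayed within it in Phgdh, Chac1, Sesn2 and Atf4. The number beyond the error was 5 under quantile normalization and cyclic loess, without Trib3, and 4 under median and spike-in scaling, without Trib3 and Mthfd2. In units of that error it was -2.74 for Ddit3, the only gene beyond 2 errors, -1.98 for Shmt2 and -1.97 for Psat1. Of all 14231 detected genes, 52.4% had a ratio below 0, 22.7% were lower by more than their error and 9.12% by more than 2 errors. Of the 2432 detected genes that lay within the range of intensity of the 10 genes, 55% had a ratio below 0 and 19.1% were lower by more than their error, with a median ratio of -0.02 and a 10th and 90th percentile of -0.30 and 0.25.

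None of the 10 genes passed 2-fold or 1.5-fold in either direction, except that Ddit3 passed 1.5-fold lower under normexp background correction, at -0.59. Across all detected genes, 260 (1.83%) were more than 2-fold lower and 95 (0.668%) more than 2-fold higher, and 831 (5.84%) were more than 1.5-fold lower and 520 (3.65%) more than 1.5-fold higher. The split of all genes depended on the scaling. When both arrays were scaled to the median, 205 genes were more than 2-fold lower and 130 higher, with 614 lower and 803 higher past 1.5-fold. When they were scaled to the spike-in RNA, 186 were more than 2-fold lower and 138 higher, with 573 lower and 871 higher past 1.5-fold. The share of detected genes below 0 was 36.9% under median scaling and 34.5% under spike-in scaling.

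**Figure D1:**
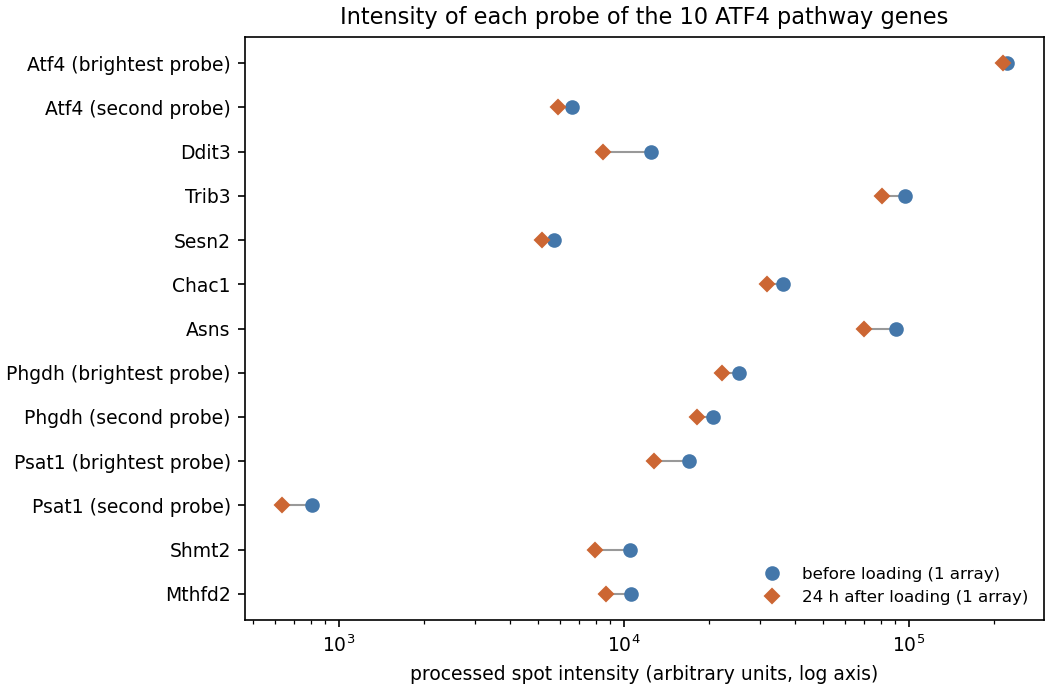
Background-subtracted spot intensity (x axis, arbitrary units, log axis) of each of the 13 probes of the 10 genes before loading (blue circles, 1 array) and 24 h after loading (orange diamonds, 1 array), before scaling. The orange point lies to the left of the blue one in all 13 probes, with the widest gap in Ddit3 (12435 and 8437). Positions of different probes are not comparable, since each probe has its own response.

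The transcription factors stood at both ends of the range. The brightest probe of Atf4 itself read 222366 before loading and 215233 at 24 h, a log2 ratio of -0.05 ± 0.20, where ± here and for every gene gives the within-array error. Its second probe read 6591 before loading and 5898 at 24 h, a log2 ratio of -0.16 ± 0.20. Both probes stayed within their error. Ddit3 encodes CHOP, a C/EBP-family factor that is known to promote cell death when stress persists. Its intensity was 12435 before loading and 8437 at 24 h, a log2 ratio of -0.56 ± 0.20, which is 1.47-fold lower. Of all detected genes, 6.39% had a lower ratio than Ddit3 and 44.8% a lower ratio than Atf4.

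The feedback regulators lay between them. Trib3 encodes a pseudokinase that is induced by ATF4 and CHOP and restrains them in turn. Its intensity was 96923 before loading and 80947 at 24 h, a log2 ratio of -0.26 ± 0.20, or 1.20-fold lower. Sesn2 encodes a leucine sensor that holds back mTORC1. Its intensity was 5725 before loading and 5192 at 24 h, a log2 ratio of -0.14 ± 0.20, less than the error. Chac1 encodes an enzyme that degrades glutathione, and its intensity was 36338 before loading and 31860 at 24 h, a log2 ratio of -0.19 ± 0.20. Trib3 and Chac1, which hold the response element core in the windows above, were 1.20-fold and 1.14-fold lower.

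Asns, the enzyme that makes asparagine and the other gene with the element core, read 90657 before loading and 69984 at 24 h. This was a log2 ratio of -0.37 ± 0.20, or 1.29-fold lower, and 12.1% of detected genes had a lower ratio. The enzymes that make serine from a glycolytic intermediate were also lower at every probe. Phgdh, which catalyses the first step, read 25392 before loading and 22206 at 24 h, a log2 ratio of -0.19 ± 0.20. A second Phgdh probe read 20587 before loading and 18164 at 24 h, a log2 ratio of -0.18 ± 0.20. Both Phgdh probes stayed within their error. Psat1, the aminotransferase of the next step, read 16947 before loading and 12826 at 24 h, a log2 ratio of -0.40 ± 0.20. Its second, dimmer probe read 809 before loading and 631 at 24 h, a log2 ratio of -0.36 ± 0.20, so that both Psat1 probes exceeded their error. In the 3 genes with 2 probes, the probes of a gene differed by 0.01 to 0.11 on the log2 scale.

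Shmt2 and Mthfd2 are the mitochondrial enzymes that take the carbon unit from serine and pass it on as formate for nucleotide synthesis. The intensity of Shmt2 was 10534 before loading and 7959 at 24 h, a log2 ratio of -0.40 ± 0.20, or 1.32-fold lower. The intensity of Mthfd2 was 10642 before loading and 8698 at 24 h, a log2 ratio of -0.29 ± 0.20, or 1.22-fold lower. Both ratios exceeded the error, Shmt2 also in all 9 other settings and Mthfd2 in 7 of them, and neither exceeded 2 errors. Of all detected genes, 10.8% had a lower ratio than Shmt2 and 16.4% a lower ratio than Mthfd2.

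**Figure D2:**
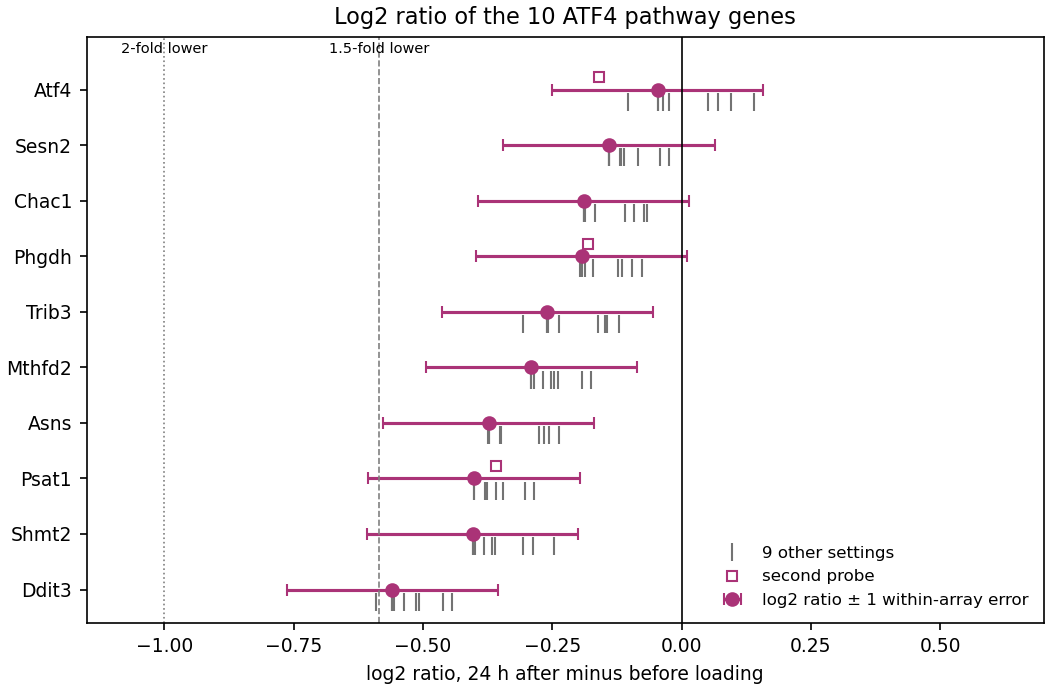
Log2 ratio of 24 h over before (x axis) of each of the 10 genes (y axis), as the brightest probe with a bar of 1 within-array error on either side, with second probes as open squares and the values under 9 other settings as grey ticks; dashed and dotted lines mark 1.5-fold and 2-fold lower. Ddit3 lies farthest from 0 (-0.56) and Atf4 nearest (-0.05), and Atf4 is the 1 gene with ticks on both sides of 0.

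The order of the genes should be read against the error of 0.20. Ddit3, at -0.56, and Shmt2, at -0.40, are neighbours in that order and differ by less than this error, and so do all other neighbours. Another scaling moved all ratios together. Spike-in scaling raised the median ratio of all detected genes by 0.12, from -0.01 to 0.10, and the median of the 10 genes with it, from -0.27 to -0.16, so that they stayed 0.26 below all detected genes. Under quantile normalization and cyclic loess, which also remove a trend with intensity, the 10 genes lay 0.20 and 0.21 below all detected genes, and Atf4 had ratios of 0.14 and 0.10. The other 9 genes were below 0 under all 9 settings that apply to single genes.

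Such a trend with intensity was present. Detected genes were divided into steps of 1 log2 unit of mean intensity. The median ratio was -0.01 in the step from 4 to 5 log2 units above the 75th percentile, where Ddit3, Psat1, Shmt2 and Mthfd2 lie, -0.09 from 7 to 8, where Trib3 and Asns lie, and -0.16 from 8 to 9, where Atf4 lies. Set against the median of its own step, the log2 ratio of Ddit3 differed by -0.55, that of Shmt2 by -0.40, that of Psat1 by -0.39, and those of Asns and Mthfd2 by -0.28 each. Of the 10 genes, 9 lay below the median of their step and Atf4 lay 0.11 above it, and the median of these differences was -0.23.

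**Figure D3:**
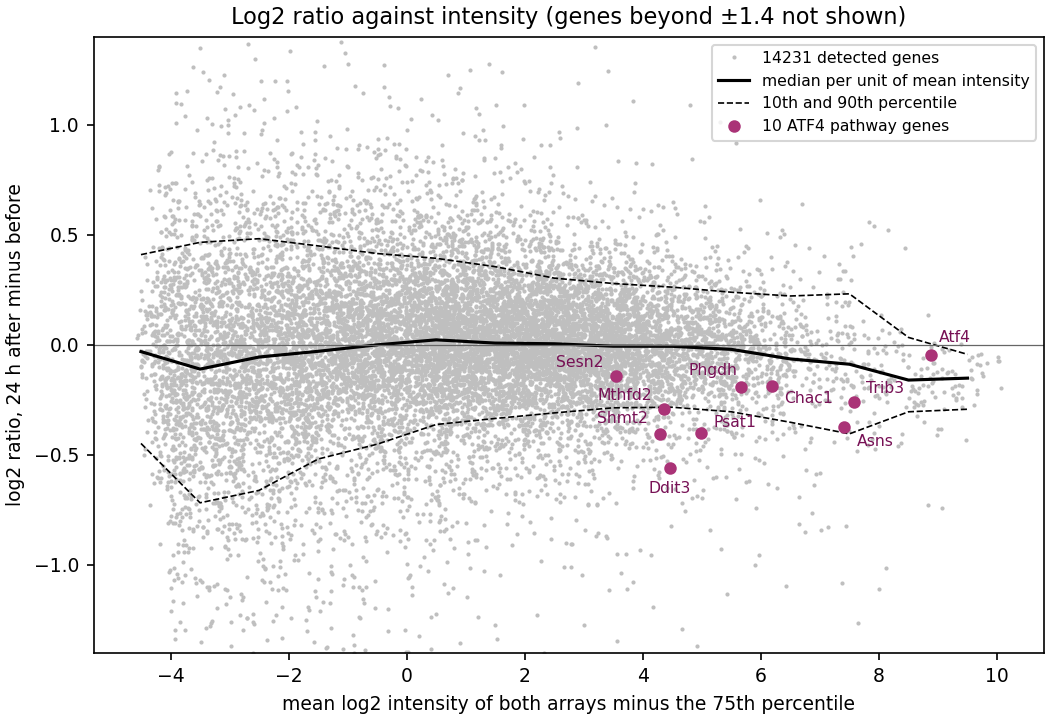
Log2 ratio of 24 h over before (y axis) against the mean log2 intensity of both arrays minus the 75th percentile (x axis) for detected genes (grey points) and the 10 genes (purple, named), with the median (solid line) and the 10th and 90th percentile (dashed lines) per log2 unit of intensity. Ddit3, Psat1, Shmt2 and Mthfd2 lie below the lower dashed line of their step, Asns and Trib3 between it and the median, and Atf4 above the median of its step (-0.16).

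The place of the probes on the slide was examined in the same way. Each of the 13 probes had 14 to 21 neighbouring spots within 100 µm. Among all these neighbours, 7 spots were more than 2-fold lower and 1 was more than 2-fold higher. The median ratio of the neighbours ran from -0.34, around the second probe of Psat1, to 0.12, around Trib3. That Psat1 probe had a ratio of -0.36 itself, close to the median of its neighbours. A total of 12 of the 13 probes had a lower ratio than the median of their neighbours, and the brightest Atf4 probe, whose neighbours had a median of -0.18, did not.

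Other genes that ATF4 and the stress response are known to induce were mostly lower too. Of 16 such genes, all detected, 13 had a ratio below 0, 11 were lower by more than their error and 0 were higher by more than it, beside 22.7% and 20.1% of all detected genes. Their median was -0.30. Under median scaling, spike-in scaling, quantile normalization and cyclic loess, 8 were lower by more than their error. In all of these but cyclic loess, 1 was higher by more than its error. Stc2, a secreted glycoprotein hormone, was the only one past 2-fold: its intensity was 4578 before loading and 2274 at 24 h, a log2 ratio of -1.01 ± 0.20, and it passed 2-fold in 3 of the 9 other settings. Ppp1r15a (GADD34), which recruits the phosphatase that restores eIF2, went from 32126 to 20887, a log2 ratio of -0.62 ± 0.20. Fgf21, a stress-induced hormone, went from 5115 to 3405, a log2 ratio of -0.59 ± 0.20. Both were named after their values were seen, as the other genes of this list past 1.5-fold, and they passed it in 4 (Ppp1r15a) and 3 (Fgf21) of the 9 other settings. Herpud1, a component of endoplasmic reticulum protein degradation, had the highest ratio of the list, 0.12 ± 0.20. It was beyond its error in 3 of the 9 other settings.

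The list holds further transcription factors of the bZIP family, most of them lower. The log2 ratio was -0.40 for Atf3, -0.37 for Cebpg, -0.34 for Cebpb and -0.22 for Atf5, each with an error of 0.20 and each larger than that error. All 4 were below 0 in all 9 other settings, but Atf5 was beyond its error in 3 of them. Jdp2, a repressor of the same family, had a log2 ratio of 0.08 ± 0.20. In 6 of the 15 genes of the list with a promoter window, the window holds TGATGNAA. These were Fgf21 (-0.59), Atf3 (-0.40), Nupr1 (-0.26), Vldlr (-0.04), Jdp2 (0.08) and Herpud1 (0.12), so that they lay on both sides of 0. The motif occurs in 3.97% of all windows and in 334 of the 11320 detected genes with a window.

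Most enzymes that charge tRNAs in the cytosol also had ratios below 0. Of 20 listed genes, 19 were matched and detected, 18 had a ratio below 0, 9 were lower by more than their error and 0 were higher by more than it, beside 52.4%, 22.7% and 20.1% of all detected genes. Their median was -0.20. Aars, the alanine enzyme, is counted as lower by its brightest probe (-0.23 ± 0.20), but its other probe gave 0.41 and its ratio was beyond its error in 3 of the 9 other settings. The highest ratio was that of Farsa (0.01 ± 0.20), a subunit of the phenylalanine enzyme. The lowest was that of Yars, the tyrosine enzyme, whose probe read 278 before loading and 176 at 24 h, a log2 ratio of -0.66 ± 0.21. The number with a ratio below 0 ran from 13, under spike-in scaling, to 18 across the 9 other settings, and the number lower by more than their error ran from 4, under spike-in scaling and quantile normalization, to 10. The response element core was found in the windows of 5 of the 13 genes of this list with a window, beside 3.97% of all windows.

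Amino acid transporters and other enzymes of amino acid synthesis were mixed. Of 11 transporters, all detected, 7 had a ratio below 0, with a median of -0.07, 3 lower and 1 higher by more than their error, beside 22.7% and 20.1% of all detected genes. Across the 9 other settings 1 to 3 were lower and 1 to 3 higher by more than their error, and the median ran from -0.08 to 0.05. Slc7a5, the carrier of large neutral amino acids, was lowest with a log2 ratio of -0.34 ± 0.20, and its intensity went from 5743 to 4526. Slc38a2, a sodium-coupled carrier of small neutral amino acids that is itself induced by amino acid shortage, was highest with a log2 ratio of 0.45 ± 0.20, and its intensity went from 14402 to 19619. Of 10 other genes of amino acid synthesis, 9 were matched and detected, 6 had a ratio below 0 (3 under spike-in scaling) and 2 were lower by more than their error, beside 22.7% of all detected genes, with a median of -0.07 that was 0.03 under median scaling and 0.05 under spike-in scaling. Ass1, which makes the precursor of arginine, was lowest, at -0.68 ± 0.20 with its brightest probe and -0.86 with another.

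The remaining genes of serine and folate metabolism were evenly divided in sign. Of 15 genes, 14 were detected, 7 had a ratio below 0 (4 under median or spike-in scaling) and 7 above, and their median was -0.003, with 1 lower and 2 higher by more than their error, beside 22.7% and 20.1% of all detected genes. The number higher was 4 under median scaling and 6 under spike-in scaling, and the median was 0.09 and 0.11. Psph, which completes serine synthesis after Phgdh and Psat1, had a log2 ratio of -0.06 ± 0.20, with intensities of 17220 before loading and 16527 at 24 h. Mthfd1l, the mitochondrial enzyme after Mthfd2, had a log2 ratio of -0.13 ± 0.20 with its brightest probe and -0.40 with another. The cytosolic enzyme Mthfd1 had a log2 ratio of 0.01 ± 0.20. Tyms, the thymidylate synthase of dividing cells, was lowest at -0.42 ± 0.21. Shmt1, the cytosolic counterpart of Shmt2, was highest, at 0.52 ± 0.21, but its other probe gave -0.06, so the direction of Shmt1 rests on 1 probe.

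Paralogs of the 10 genes were examined next. Of 9 paralogs, all detected, 3 had a ratio below 0, 1 was lower and 4 were higher by more than their error, beside 52.4%, 22.7% and 20.1% of all detected genes, and the median was 0.09. The lower one was Atf5, beyond its error in 3 of the 9 other settings, itself an ATF4 target that is counted in both lists, and Shmt1, 1 of the 4 higher ones, rests on 1 probe. Trib2 had a log2 ratio of 0.56 ± 0.21, beside -0.26 for Trib3, and Trib1 one of -0.07 ± 0.20. Sesn1 had a log2 ratio of 0.35 ± 0.20, beside -0.14 for Sesn2, and Sesn3 one of -0.12 ± 0.20. Chac2 had a log2 ratio of 0.36 ± 0.21, beside -0.19 for Chac1, and Mthfd2l had 0.09 ± 0.20, beside -0.29 for Mthfd2. Trib2, Sesn1, Chac2 and Mthfd2l were above 0 in all 9 other settings.

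The kinases and factors upstream of ATF4 were divided in sign. Of 13 genes, all detected, 6 had a ratio below 0, 3 were lower and 1 was higher by more than their error, beside 22.7% and 20.1% of all detected genes, with a median of 0.02. The number higher reached 5 under spike-in scaling. The log2 ratio was 0.14 for Eif2ak1 (HRI), which senses heme, and 0.07 for Eif2ak2 (PKR), which senses double-stranded RNA. It was 0.19 for Eif2ak3 (PERK), which senses misfolded protein in the endoplasmic reticulum, and -0.05 for Eif2ak4 (GCN2), which senses uncharged tRNA. These 4 ratios lay within the error of 0.20 to 0.21, but those of Eif2ak1 and Eif2ak3 exceeded it in 2 and 4 of the 9 other settings. The lowest ratio was that of Eif2b3 (-0.41 ± 0.20), a subunit of the exchange factor of eIF2, and the highest that of Impact (0.26 ± 0.20), an inhibitor of GCN2 activation. The other probe of Impact gave -0.10, so the 1 higher gene rests on 1 probe. Eif2s1, the phosphorylated subunit of eIF2, is counted as lower by its brightest probe (-0.34 ± 0.20), but its other probe gave 0.49. Phosphorylation of eIF2 and the amount of ATF4 protein are not seen on an expression array.

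Genes of the other arms of the unfolded protein response, driven mainly by ATF6 and XBP1, mostly had ratios above 0. Of 11 genes, all detected, 8 had a ratio above 0, 6 were higher and 2 lower by more than their error, beside 20.1% and 22.7% of all detected genes, and the median was 0.27. Dnajb9, counted as higher by its brightest probe (0.33 ± 0.20), had another probe at 0.06. Edem1, which marks misfolded glycoproteins for removal, was highest with a log2 ratio of 0.44 ± 0.20, its intensity going from 1269 to 1725. Ern1, the sensor IRE1, was lowest at -0.24 ± 0.20. The chaperones Hsp90b1 (GRP94) and Hspa5 (BiP) had log2 ratios of -0.21 ± 0.20 and -0.06 ± 0.20. Together with Ern1 they were the only genes of the list below 0. Calr, Pdia4, Dnajc3 and Sdf2l1, of the same list, had log2 ratios of 0.04, 0.27, 0.27 and 0.36, each ± 0.20. Hsp90b1 was beyond its error in 3 and Ern1 in 7 of the 9 other settings, so that 0 genes were lower by more than their error under median and spike-in scaling. The summed intensity of the list was 174984 before loading and 168675 at 24 h, opposite in direction to its median. The median of this list lay between 0.20 and 0.38 across the 9 other settings, and that of the other ATF4 stress targets between -0.30 and -0.18.

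**Figure D4:**
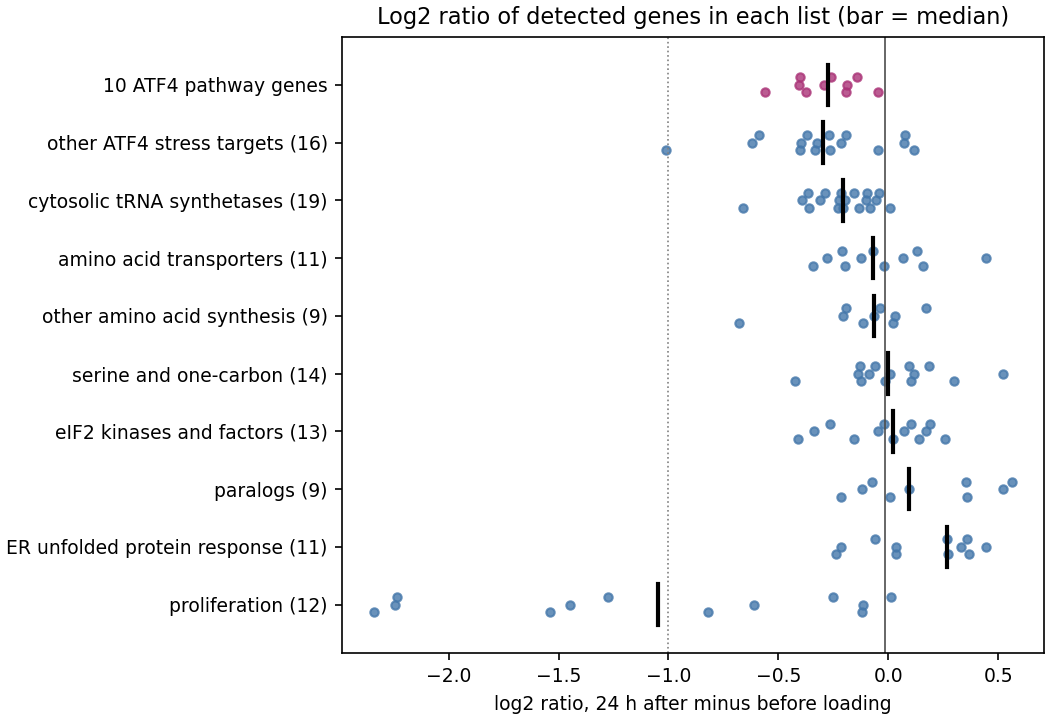
Log2 ratio of 24 h over before (x axis) of every detected gene in each list (y axis; number detected in brackets), with a black bar at the list's median, a solid line at the median of all detected genes (-0.01) and a dotted line at 2-fold lower. The 10 genes (median -0.27), the other ATF4 stress targets (-0.30) and the tRNA synthetases (-0.20) lie mostly left of the solid line, where Atf4 crosses 0 under 4 other settings, and the ER unfolded protein response list (0.27) lies mostly right of it.

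Across all detected genes with a promoter window, both motifs were compared without a test. The 334 genes with TGATGNAA in the window had a median log2 ratio of -0.05, and 59.0% were below 0. The 380 genes with TGACGTCA had a median of -0.03, and 55.0% were below 0. The 11320 detected genes with a window had a median of -0.01, and 52.4% were below 0. In the related lists not counted above, TGATGNAA was found in 2 of 7 transporter genes and 2 of 7 other amino acid synthesis genes with a window. It was found in 0 of 11 serine and folate genes, 0 of 10 eIF2 genes and 0 of 10 unfolded protein response genes. The paralogs had 0 of 8 and the proliferation genes 0 of 12.

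Genes of cell division had the lowest median of the 9 related lists. Of 12 proliferation genes, all detected, 11 had a ratio below 0 and 6 were more than 2-fold lower, beside 52.4% and 1.83% of all detected genes, with a median of -1.05. Aurka, a mitotic kinase, had a log2 ratio of -2.34 ± 0.20, Plk1, another, one of -2.24 ± 0.20, and Ccnb1, the mitotic cyclin, one of -2.24 ± 0.20. The others past 2-fold were Mki67 (-1.54), Top2a (-1.45) and Cdk1 (-1.27). The highest ratio was that of Mcm3 (0.01 ± 0.20), a subunit of the replicative helicase. The summed intensity of the list was 53599 before loading and 33756 at 24 h. Its part in the ratios of the 10 genes was not tested.

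Defining markers of chondrocytes were abundant at both time points, and 10 of 10 were detected. Their summed intensity was 1.233e+06 before loading and 1.227e+06 at 24 h, with Col2a1, the main collagen of cartilage, the brightest (499543 and 474876). Of the 10 markers 5 were higher and 2 lower by more than their error, beside 20.1% and 22.7% of all detected genes. Across the 9 other settings 5 to 6 were higher and 1 to 2 lower. The log2 ratio was -0.82 ± 0.20 for the collagen gene Col11a1, 0.56 ± 0.20 for Matn1, 0.40 ± 0.20 for Hapln1 and 0.34 ± 0.20 for the proteoglycan gene Acan. Sums cover all matched genes of a list. Of 5 fibroblast-like markers 5 were detected, with sums of 132181 and 133234 and Col1a2 the brightest. Among them 4 had a ratio above 0, with a median of 0.12. By more than the error 1 was higher, Postn (0.43 ± 0.20), and 0 were lower, beside 20.1% and 22.7% of all detected genes. The number higher was 3 under median and spike-in scaling. Of 6 macrophage markers 5 were matched and detected, with sums of 4198 and 4024 and Csf1r the brightest, and Ptprc, the common leukocyte antigen, went from 20.9 to 46.1 at a dim probe. Of these 5 markers 4 had a ratio above 0 and 2 were higher by more than their error (20.1% of all detected genes), Ptprc (1.14 ± 0.35) and Lyz2 (0.46 ± 0.20), with a median of 0.21, opposite in direction to the sum. Of 4 endothelial markers 2 were detected, Kdr the brightest, with sums of 12894 and 12520, and Cdh5 and Tek were not well above background. The log2 ratio was -0.05 ± 0.20 for Kdr and 0.23 ± 0.22 for Pecam1, with a median of 0.09, opposite in direction to the sum. Pecam1 was higher by more than its error (20.1% of all detected genes), but not under normexp background correction. Of 5 skeletal muscle markers 2 were detected, Acta1 the brightest, with sums of 1628 and 1214. Both were lower by more than their error, beside 22.7% of all detected genes, Acta1 at -0.31 ± 0.20 and Tnnt3 at -0.78 ± 0.21. Another Tnnt3 probe was at -1.004. Acta1 was within its error under spike-in scaling. Neither array had Ckm or Des well above background. Myh1 was so at 24 h alone, and its intensity went from 17.1 to 46.1, opposite in direction to the 2 detected markers. Of 4 erythroid markers 1 was detected, Hba-a1, with sums of 73.7 and 79.7 over 3 matched genes, and Alas2 was not well above background.

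Adipocyte markers had the highest median of the 7 marker lists, 1.01. Of 4 genes, 3 were detected, with summed intensities of 877 before loading and 1838 at 24 h and Fabp4 the brightest. The log2 ratio was 2.29 ± 0.24 for Adipoq, 1.01 ± 0.22 for Plin1 and 0.95 ± 0.20 for Fabp4, and Cidec was not well above background. Whether the makeup of the culture bears on the ratios of the 10 genes was not tested.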

How the data were processed

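The authors hybridised total RNA to SurePrint G3 Mouse Gene Expression arrays and deposited the intensity of each spot as processed by Agilent Feature Extraction 10.10.1.1: background was subtracted, arrays were not normalized to each other, and the software's errors and flags were kept. A deposited value table holds the same intensities, rounded. The scanner in the file headers differs from that in the methods.

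Outlier flags (141 before, 138 at 24 h) removed a spot from both arrays. Spots of a probe were then averaged on the log2 scale, which left 55678 probes from 59305 spots. Each array's 75th percentile was subtracted. Accessions were matched without version to RefSeq genes (27235 probes). The brightest probe represents a gene, and a gene is detected if both arrays have it well above background, as 59.1% (before) and 57.7% (24 h) of spots were. No test was run with 1 array per time point.

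The 10 genes and the 9 related and 7 cell type lists were chosen with earlier results of these data known. Named are all members, list genes past 2-fold or else the highest and lowest of a list, relatives of members, and, for marker lists, the brightest gene and those not detected; some list genes that this rule names are not reported here. Jdp2, Nupr1, Vldlr, Aars, Eif2s1, Hsp90b1, Hspa5, Calr, Pdia4, Dnajc3, Sdf2l1, Col11a1, Matn1, Hapln1, Acan, Dnajb9, Lyz2, Tnnt3, Adipoq, Plin1, Pecam1, Postn and Ptprc were named after their values were seen. A total of 12 alternatives were run. Normexp used median spot intensities. The calculation was tested on simulated data. Python 3.11.15, numpy 2.4.6, pandas 2.3.3, R 4.3.3 and limma 3.58.1 were used.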

Additional observations from a re-analysis of the deposited data

How the results depend on the processing

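No paired analysis was possible because there was 1 array per time point. The ratios of the 10 genes moved by less than their within-array error in 90 of 90 values under 9 settings, with Atf4 between -0.10 and 0.14 and Ddit3 between -0.59 and -0.44. Normexp background correction (offset 50) brought Ddit3, 1 of the 10 genes, past 1.5-fold lower. For the related lists, 99 of 99 medians moved by less than the within-array error, and 96 of 99 counts below 0 stayed within 1.5 times. So did 375 of 378 values of named genes move by less than the error, but these left out some genes named in the text. Of those, Aars ran from -0.24 to 0.09 and Eif2s1 from -0.34 to 0.08 across 9 settings. Hsp90b1, Dnajb9, Col11a1, Matn1, Hapln1 and Acan, also left out, kept their sign.

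The counts over all genes depended more on the processing. Median scaling gave 803 and spike-in scaling 871 genes more than 1.5-fold higher. Normexp gave 38 higher and 118 lower past 2-fold, and 273 higher and 431 lower past 1.5-fold. Detection on at least 1 array gave 192 higher and 507 lower past 2-fold. Without a filter on dim probes there were 492 higher and 983 lower past 2-fold, and 1305 higher and 2177 lower past 1.5-fold. When the fold had to be passed by 2 within-array errors, 23 were higher and 95 lower past 2-fold, and 79 higher and 225 lower past 1.5-fold. The cause of these differences was not tested, other than that the detection settings change the number of genes counted. Signals down to 17.3 (before) and 17.8 (24 h) were called well above background, and all probes of the 10 genes lay far above it (809 or more before loading).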
